A study of Mus musculus with 4 samples.

Results

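The microRNAs described here are those encoded inside the mouse Hox gene clusters: miR-10a and miR-10b, miR-196a and miR-196b, and miR-615. They were taken by name from the deposited count tables, with the star names that mark the rarer arm of a hairpin, which gave 9 of the 508 microRNAs listed in any library. Of these 9, 8 passed a floor on low counts, as did 372 microRNAs in all. Small RNA of mouse embryonic fibroblasts (MEFs), cells cultured directly from embryos, had been sequenced in 4 libraries, 1 per group. All 4 groups carry shLuc.1309, an artificial short hairpin (shRNA) that targets luciferase, a gene absent from mice. The strain shLuc.1309 was sampled without and with doxycycline (dox), and so was the strain shLuc.1309;ROSA-rtTA. The second strain also makes rtTA, the reverse tetracycline transactivator, from the widely active Rosa26 locus, and rtTA needs dox to switch on a tetracycline-responsive promoter. The labels give no age, dox dose, dox duration or number of embryos, and no second library of any group. Libraries of the first strain are called no rtTA -dox and no rtTA +dox below. Those of the second are called rtTA -dox and rtTA +dox.

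Hox genes encode homeodomain transcription factors that set position along the head-to-tail axis and along the limbs. They sit in 4 clusters in which gene order follows the order of expression along the body, and fibroblasts keep part of this positional code in culture. The microRNAs of the clusters lie between or inside the Hox genes, and their known targets include Hox messages of the same clusters. Such a microRNA is cut from a hairpin whose guide arm is loaded into Argonaute, while the passenger arm, here the star, is mostly lost. Bases 2 to 8 of the guide, the seed, pair with the target.

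All 9 members matched a mature sequence in RefSeq (build GRCm38.p6). The guide strands are printed 5′ to 3′ with the seed in capitals, because the pairs differ by a single base outside it.
miR-10a: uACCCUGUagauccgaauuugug
miR-10b: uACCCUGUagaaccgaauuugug
miR-196a: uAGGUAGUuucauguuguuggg
miR-196b: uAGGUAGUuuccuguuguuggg
miR-615-3p: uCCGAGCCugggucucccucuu
Counted from the 5′ end, miR-10a and miR-10b differ by U12A, and miR-196a and miR-196b by A12C. Each pair shares its seed, and among the other listed microRNAs none has the seed of miR-10, of miR-196 or of miR-615-3p at bases 2 to 8. How the authors treated reads that fit more than 1 microRNA is not given in the sources used here, so counts could have been split within each pair.

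The 7 bases of the miR-196 seed recur 1 base further in, at bases 3 to 9, in 8 listed microRNAs of the let-7 family, and miR-99a and miR-100 resemble miR-10 in sequence but differ in the seed. The relatives are printed with bases 3 to 9 (let-7a) or 2 to 8 (miR-99a and miR-100) in capitals.
let-7a: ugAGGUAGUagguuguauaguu
miR-99a: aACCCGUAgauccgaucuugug
miR-100: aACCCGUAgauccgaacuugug
Where microRNA families are defined by the seed, these relatives belong to other families.

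The 6 hairpins are spread over all 4 clusters, in GRCm38 coordinates. Mir10a lies in Hoxb at chr11:96317165-96317274 (plus strand), 993 bases before Hoxb4, and overlaps no other annotated gene. Mir10b is at the matching place in Hoxd, chr2:74726070-74726137 (plus strand), inside introns of Hoxd4 and Hoxd3. Mir196a-1 lies in Hoxb at chr11:96265164-96265265 (plus strand), in the interval between Hoxb13 and Hoxb9 and 6192 bases before Hoxb9. Mir196a-2 lies in Hoxc at chr15:102973350-102973434 (plus strand), between Hoxc10 and Hoxc9 and in an intron of 1 long Hoxc5 transcript. Mir196b lies in Hoxa at chr6:52230081-52230165 (minus strand), 1032 bases after Hoxa10, and overlaps an exon of 2 of the 3 Hoxa9 transcripts that span it. Mir615 lies in Hoxc at chr15:103014910-103015001 (plus strand), in a Hoxc5 intron. The miR-10 hairpins thus lie beside or inside Hox4 genes, and the miR-196 hairpins lie beside or inside Hox9 genes.

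**Figure D1:**
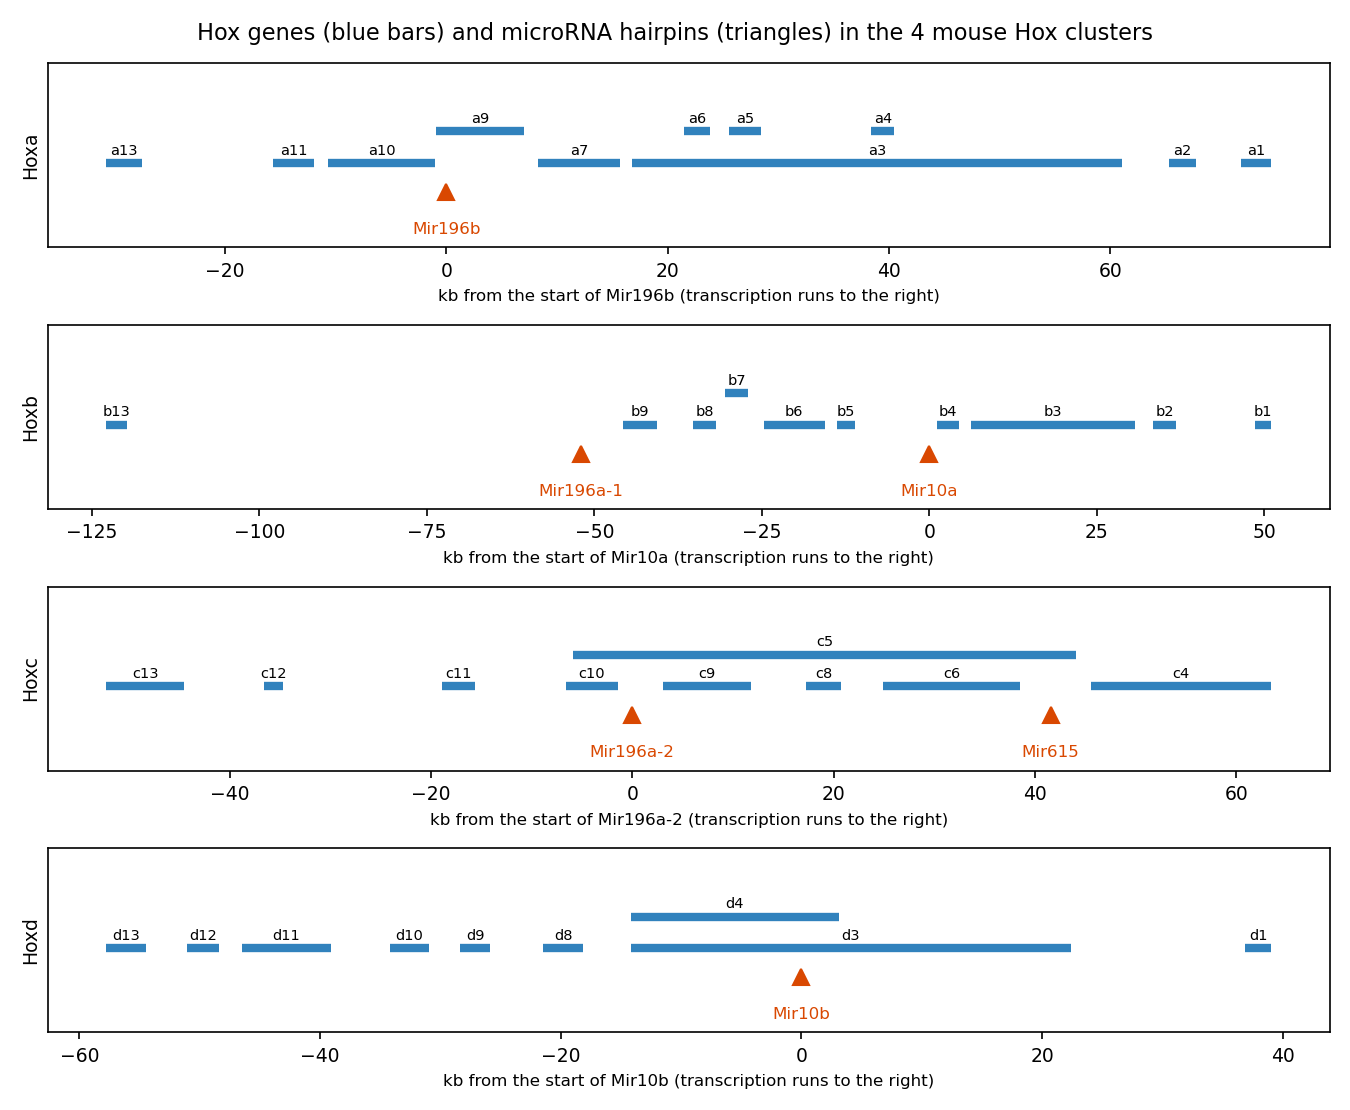
Position of the hairpins (triangles) and the protein-coding Hox genes (bars, labelled by cluster letter and number) in the 4 clusters, in kb from the start of 1 hairpin per cluster, with transcription running to the right. Mir10a sits beside Hoxb4 and Mir10b inside Hoxd4, and the 3 miR-196 hairpins sit at the upstream side of, or inside, the group 9 gene.

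Hairpins are printed with the listed arms in capitals, since they show which locus an arm can report on.
Mir10a: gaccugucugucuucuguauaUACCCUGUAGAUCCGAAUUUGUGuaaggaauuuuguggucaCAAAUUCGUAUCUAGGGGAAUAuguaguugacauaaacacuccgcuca
Mir10b: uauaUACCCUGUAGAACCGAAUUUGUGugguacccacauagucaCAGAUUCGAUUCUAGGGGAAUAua
Mir196a-1: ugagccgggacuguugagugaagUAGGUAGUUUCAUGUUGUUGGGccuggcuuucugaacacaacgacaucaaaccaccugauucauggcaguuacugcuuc
Mir196a-2: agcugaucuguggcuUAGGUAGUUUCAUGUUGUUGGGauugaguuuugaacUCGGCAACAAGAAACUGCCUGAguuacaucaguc
Mir196b: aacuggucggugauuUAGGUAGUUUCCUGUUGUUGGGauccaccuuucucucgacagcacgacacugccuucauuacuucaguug
The miR-196a guide is identical in Mir196a-1 and Mir196a-2, so its count cannot be divided between Hoxb and Hoxc. The miR-196a* sequence occurs in Mir196a-2 alone among the RefSeq mature microRNAs, so that arm reads out the Hoxc copy. The stars of miR-10a and miR-10b differ at 3 positions (A3G, U9A and A10U), which makes them easier to tell apart than their guides.

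miR-196 is known for cutting the Hoxb8 message. In the longest Hoxb8 transcript of GENCODE M21, the best ungapped pairing with miR-196a fell in the 3′ untranslated region at chr11:96284888-96284909 (plus strand), 418 bases after the stop codon. The site is printed as DNA, with the bases that face the seed in capitals.
Hoxb8 site: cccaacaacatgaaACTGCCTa
All 22 bases of miR-196a paired there, 21 as Watson-Crick pairs and 1, opposite the seed, as a G:U wobble. Over the longest transcripts of 21877 protein-coding genes, 2 held a site with 22 paired bases, and Hoxb8 alone had 21 Watson-Crick pairs in it. miR-196b paired at 21 of its 22 bases at the same site. That many paired bases were less rare: 28 of the 21877 genes held a site with at least 21. Of these, Hoxb8 alone had 20 or more Watson-Crick pairs in it. Messenger RNA was not measured here, so the site says nothing about Hoxb8 in these cells.

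The libraries held 6383594 to 8780954 counts and listed 462 to 477 endogenous microRNAs. Levels are given as CPM, counts per 1000000 endogenous microRNA counts of the library, leaving out the shRNA, which held 0.0725% to 0.0786% of all counts in the 3 uninduced libraries and 2.38% in rtTA +dox. Intervals are exact 95% intervals for counting error only, because amplified reads are not independent molecules. Fibroblast and mesenchymal markers, 9 of 10 of them listed, summed to 47.2% to 47.8% of the endogenous counts. They include miR-21 and miR-22, with 1468803 and 671193 of the 6378964 endogenous counts in no rtTA -dox. The sum rests largely on these and does not measure how pure the cells were. The summed shares of other cell types were at most 0.0812% (neuronal, 6 of 6 listed), 0.0592% (muscle, 4 of 4), 0.0175% (endothelial, 2 of 2), 0.00822% (blood, 6 of 6), 0.00203% (epithelial, 7 of 7), 0.000399% (liver, 1 of 1) and 6.66e-05% (pluripotent, 4 of 9). Across libraries the muscle share was highest in rtTA +dox and the blood share in rtTA -dox; their part in the results below was not tested.

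miR-10a was the most abundant Hox-cluster microRNA in every library. mmu-miR-10a had 30770 counts, 4824 CPM (interval 4770 to 4878), in no rtTA -dox and 42841 counts, 6551 CPM (6489 to 6613), in no rtTA +dox. In the rtTA strain it had 49493 counts, 5641 CPM (5591 to 5691), without dox and 66941 counts, 8916 CPM (8849 to 8984), with dox. Both +dox libraries were thus above both -dox libraries. It ranked between 24 and 34 among the endogenous microRNAs of each library.

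mmu-miR-10b, the Hoxd copy, stood at 1621 CPM without and 2212 CPM with dox in the strain lacking rtTA, and at 1537 and 2290 CPM in the rtTA strain. The +dox libraries were again the higher ones, and the -dox libraries of both strains were close to each other. Its counts ran from 10339 to 17195 and its rank from 54 to 73.

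The miR-196 guides did not share that order. mmu-miR-196a, from Hoxb and Hoxc, had 1539 CPM without and 1471 CPM with dox in the strain lacking rtTA, and 1709 and 1397 CPM in the rtTA strain, on 9619 to 14992 counts. mmu-miR-196b, from Hoxa, had 501 and 477 CPM in the first strain and 430.1 and 778 CPM in the second, again -dox before +dox, on 3119 to 5838 counts. rtTA +dox was therefore the lowest library for miR-196a and the highest for miR-196b, while the other 3 libraries of miR-196b lay close together.

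miR-615-3p, the common arm of the Hoxc5 intronic hairpin, had 305 CPM without and 354 CPM with dox in the strain lacking rtTA, and 239 and 223 CPM in the rtTA strain. Both libraries without rtTA were above both libraries with it. Its other arm, miR-615-5p, had 4 counts in each library but rtTA +dox, where it had 2, at most 0.627 CPM, where 3 counts alone would be 0.342 to 0.470 CPM, so no difference was detectable at this depth.

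The passenger strands were rare. miR-10a* had 98.8 and 152 CPM without rtTA (-dox and +dox), and 138 and 121 CPM with it. miR-10b* had 36.8 and 52.0 CPM without rtTA, and 37.3 and 58.3 CPM with it, so its +dox libraries were the higher ones, as for its guide. miR-196a* had 33 and 30 counts (5.17 and 4.59 CPM) without rtTA, and 54 and 65 counts (6.15 and 8.66 CPM) with it. The mature sequences are 22 or 23 bases long, so CPM also compares levels per length. How evenly different sequences were captured was not measured, so the order of members is an order of reads. By CPM the order was miR-10a, miR-10b, miR-196a, miR-196b, miR-615-3p, miR-10a*, miR-10b*, miR-196a* and miR-615-5p in 3 libraries. In rtTA -dox miR-196a stood above miR-10b. The neighbours closest in level were miR-10b and miR-196a in no rtTA -dox, 1621 (1590 to 1652) against 1539 CPM (1509 to 1570), a gap smaller than the spread of either over the libraries. Together the 9 members held 0.893% of the endogenous counts in no rtTA -dox and 1.13% with dox in that strain, and 0.974% and 1.38% in the rtTA strain without and with dox.

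**Figure D2:**
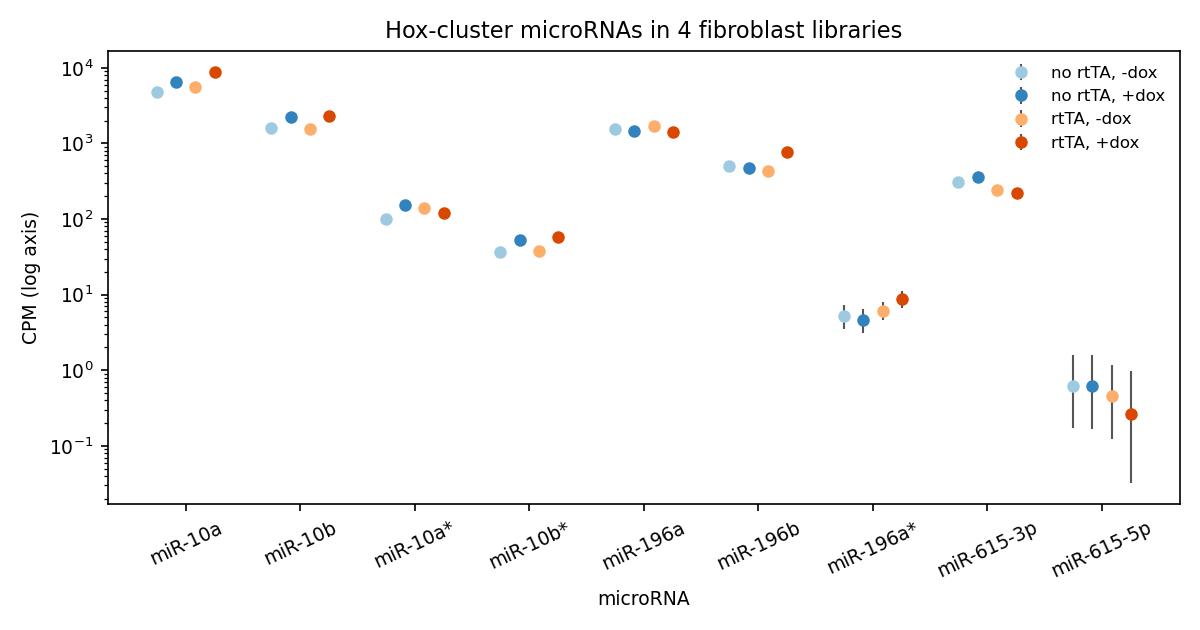
Level of each Hox-cluster microRNA in CPM (log axis) in the 4 libraries, 1 point per library with its exact 95% counting interval. miR-10a runs from 4824 to 8916 CPM, and rtTA +dox is the highest point for miR-196b (778 CPM) and the lowest for miR-196a (1397 CPM).

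The spread over the libraries was ordinary for most members. The highest library exceeded the lowest by 1.85-fold for miR-10a, 1.81-fold for miR-196b and 1.89-fold for miR-196a*, against a median of 1.58-fold over the 372 microRNAs past the floor. Of those 372, 30.1% had at least the spread of miR-10a. miR-196a was among the steadier ones at 1.22-fold, a spread that 90.3% reached. miR-10b (1.49-fold), miR-10a* (1.54), miR-10b* (1.58) and miR-615-3p (1.59) were near the median.

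Dox in rtTA cells, the comparison in which the shRNA is induced, had higher miR-10a, miR-10b, miR-10b* and miR-196b in rtTA +dox than in rtTA -dox. The log2 ratio of CPM was 0.66 for miR-10a (interval 0.64 to 0.68), 0.58 for miR-10b (0.54 to 0.61), 0.65 for miR-10b* (0.44 to 0.86) and 0.85 for miR-196b (0.79 to 0.91). miR-196a lay on the other side at -0.29 (-0.33 to -0.25), with miR-10a* at -0.19 (-0.32 to -0.07) and miR-615-3p at -0.10 (-0.19 to -0.0081), or 0.0081 once a trend on G content is subtracted. miR-196a* was at 0.49 with an interval that included 0 (-0.05 to 1.04). By the rule of a difference of at least 2-fold with an interval that excludes equality, 0 of 8 members were counted, against a background of 9.95% of all 372. With 1.5-fold in place of 2-fold, a threshold added after seeing the data, 3 of 8 were higher (miR-10a, miR-10b* and miR-196b; background 11.0%) and 0 lower (17.7%). This list depended on the G content of the sequences: with the linear trend on G subtracted, as described further down, miR-196b (0.38) and miR-10b* (0.56) were no longer counted. miR-10b (0.73) and miR-196a* (0.60) were then counted as higher with miR-10a (0.81), and miR-196a (-0.76) as lower, 4 of 8 against a background of 15.3%. The median of the 8 was 0.53, against -0.06 over all 372. No difference given here or later has a replicate check, since each group is a single library, and all compare libraries, not conditions. In bulk RNA, fewer cells that make a microRNA and less of it per cell cannot be told apart.

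Dox without rtTA, where the shRNA stays uninduced, had all 4 arms of the miR-10 hairpins higher in no rtTA +dox. Over all 372 microRNAs, 46.0% were above 0. The arms come from Mir10a and Mir10b alone, so they are not 4 separate observations. The log2 ratios were 0.44 for miR-10a (0.42 to 0.46), 0.45 for miR-10b (0.41 to 0.49), 0.62 for miR-10a* (0.48 to 0.77) and 0.50 for miR-10b* (0.25 to 0.74). The miR-196 guides were near 0, at -0.07 (-0.11 to -0.03) for miR-196a and -0.07 (-0.14 to 0.00092) for miR-196b, and both were above 0 (0.03 and 0.02) after that subtraction. miR-615-3p was at 0.21 (0.13 to 0.30). None of the 8 was counted by the 2-fold rule (background 1.61%), and miR-10a* alone was counted as higher by 1.5-fold (background 7.53%). The median of the 8 was 0.33, against -0.04 over all 372. This comparison shares no library with the previous one, and the miR-10 guides were higher with dox in both. Of all 372, 91.7% lay below miR-10a and 87.9% below miR-10b in dox in rtTA cells. In dox without rtTA 85.8% and 86.0% did. How many of the 372 were higher with dox in both comparisons was not counted, and the guides may share reads.

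rtTA without dox, the comparison of strains with the shRNA off, showed small differences. The log2 ratio was 0.23 for miR-10a (0.21 to 0.25) and 0.49 for miR-10a* (0.35 to 0.63), but -0.08 for miR-10b (-0.11 to -0.04) and 0.02 for miR-10b* (-0.23 to 0.26). Both arms of Mir10a were thus higher in the rtTA strain, and both arms of Mir10b were within 0.1 of equality on the log2 scale. miR-196a was at 0.15 (0.11 to 0.19), miR-196b at -0.22 (-0.29 to -0.15) and miR-615-3p at -0.35 (-0.44 to -0.26). By either rule 0 of 8 were counted (background 1.88% at 2-fold and 9.41% at 1.5-fold), and the median was 0.08 against -0.07 over all. With the DESeq2 scaling the median of the 8 was 0.15, but that scaling raises every ratio of the comparison by 0.07.

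The comparison of strains under dox, rtTA with dox, set rtTA +dox against no rtTA +dox. It shares its libraries with the first and second comparisons. miR-10a was at 0.44 (0.43 to 0.46), while its passenger strand miR-10a* was on the other side at -0.32 (-0.46 to -0.19). miR-10b was at 0.05 (0.02 to 0.08) and miR-10b* at 0.17 (-0.04 to 0.37). miR-196b was at 0.71 (0.64 to 0.77). miR-196a was at -0.07 (-0.11 to -0.03), at 0.0046 and 0.0052 with the TMM and DESeq2 scalings, and at -0.64 (-0.68 to -0.60) with the G trend subtracted. miR-196a* was at 0.92 (0.27 to 1.59) on 65 against 30 counts, and miR-615-3p at -0.67 (-0.76 to -0.58). None of the 8 passed the 2-fold rule (background 16.7%). At 1.5-fold 2 were higher, miR-196b and miR-196a* (background 13.7%), and miR-615-3p was lower (24.2%). With the G trend subtracted, miR-196b (0.14) and miR-615-3p (-0.54) were no longer counted, while miR-10a (0.63) and miR-196a* (1.05) were higher and miR-196a was lower, 3 of 8 against a background of 25.3%. The median of the 8 was 0.11 against -0.07 over all 372, and was 0.19 with the TMM and DESeq2 scalings. Each of these scalings raises every ratio of the comparison by 0.08, so the median over all 372 rises alike.

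**Figure D3:**
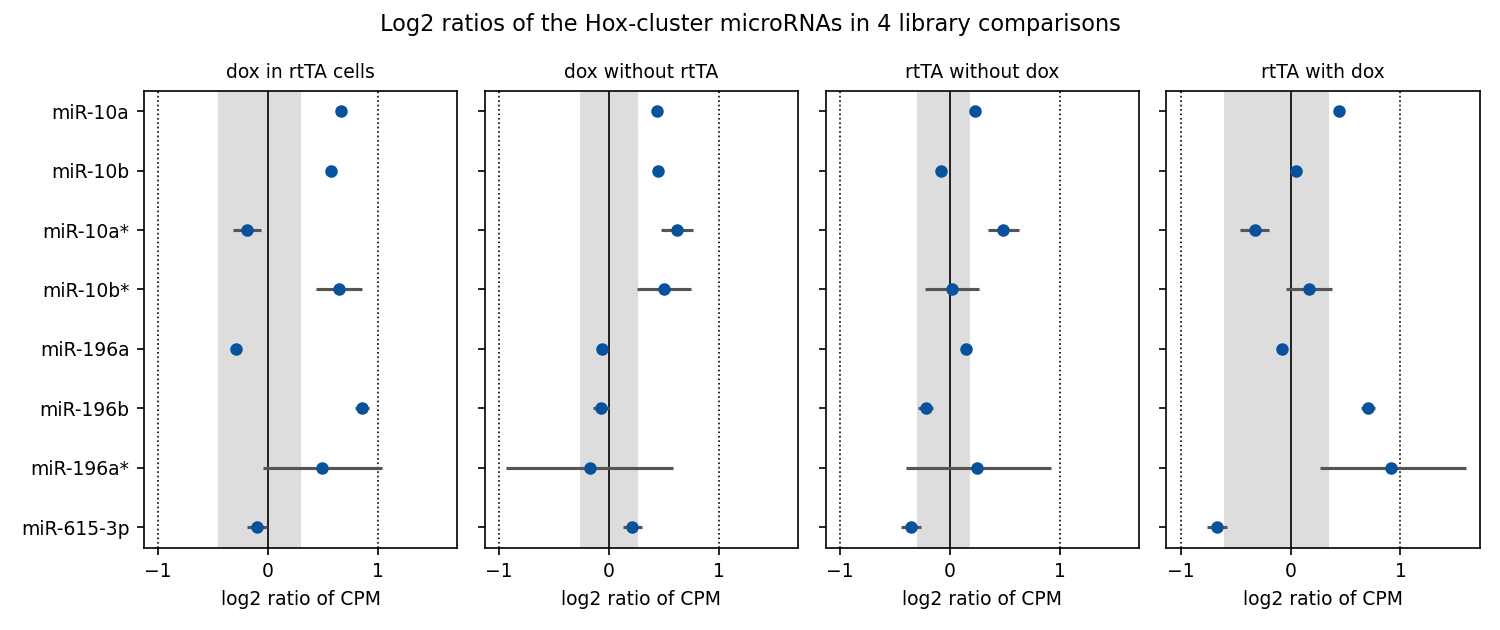
Log2 ratio of CPM of the 8 Hox-cluster microRNAs past the floor in 4 comparisons, with exact 95% counting intervals; the grey band holds the middle 50% of all 372 microRNAs and dotted lines mark 2-fold. The miR-10 guides lie to the right of the band in both dox comparisons, and miR-196b does so at 0.85 and 0.71 in the comparisons that use rtTA +dox.

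The dox ratios of the strains were nearest to each other for the guides miR-10a, miR-10b and miR-196a and for miR-10b*, before any correction for G content. They were then farthest apart for miR-196b and miR-10a*. The difference of the log2 ratios was 0.22 for miR-10a (0.19 to 0.25) and 0.13 for miR-10b (0.08 to 0.18). It was 0.92 for miR-196b (0.83 to 1.02), -0.81 for miR-10a* (-1.002 to -0.62), -0.23 for miR-196a (-0.28 to -0.17) and -0.32 for miR-615-3p (-0.44 to -0.19). The intervals of miR-10b* (0.15, -0.17 to 0.47) and miR-196a* (0.66, -0.22 to 1.54) included 0. By the 2-fold rule 0 of 8 differences were counted (background 18.0%), and by 1.5-fold 2 were, miR-196b and miR-10a* (background 41.4%), a share below the background. With the G trend subtracted the difference was 0.36 (0.27 to 0.45) for miR-196b, which was then not counted, and -0.79 (-0.84 to -0.74) for miR-196a, which then was. miR-10a* kept its call at -0.68 (-0.87 to -0.49), so again 2 of 8 were counted (background 28.0%). The differences of miR-10a (0.40, 0.37 to 0.43) and miR-10b (0.31, 0.26 to 0.36) were then about as wide as that of miR-196b.

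The near-identical pairs were also compared by shares, which do not depend on scaling. miR-196b made up 24.5% of the miR-196 guides in no rtTA -dox (interval 23.8% to 25.3%), 24.5% in no rtTA +dox (23.7% to 25.2%), 20.1% in rtTA -dox (19.5% to 20.7%) and 35.8% in rtTA +dox (35.0% to 36.5%). The induced library stood apart from the other 3. Between rtTA +dox and rtTA -dox the log2 ratio of miR-196b to miR-196a differed by 1.15 (1.08 to 1.21). Of 22 pairs of microRNAs past the floor that are equally long and 1 mismatch apart, this was the widest gap, followed by 0.73 for let-7a and let-7c, with a median of 0.25. With dox in cells without rtTA the same pair had the narrowest gap of the 22, 0.0049. Counted from the widest, the pair ranked 2 of 22 in rtTA without dox (0.37), where the shRNA is off in both libraries. In rtTA with dox it ranked 3 of 22 (0.78). The pair thus also parted between the strains without induction. Summed over both guides, miR-196 was nearly level with dox in rtTA cells, at 2174 against 2139 CPM (log2 ratio 0.024, -0.0066 to 0.05). Unlike the shares, this sum depends on scaling, and the trend on G was not subtracted from it. That subtraction lowered both guides, miR-196b from 0.85 to 0.38 and miR-196a from -0.29 to -0.76.

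The miR-10 share followed the strain. miR-10b made up 25.2% (24.7% to 25.6%) and 25.2% (24.9% to 25.6%) of the miR-10 guides without rtTA (-dox and +dox), and 21.4% (21.1% to 21.7%) and 20.4% (20.2% to 20.7%) with rtTA. The dox comparisons moved the log2 ratio of miR-10b to miR-10a by -0.08 (-0.12 to -0.05) with rtTA and by 0.0073 (-0.03 to 0.05) without. The strain comparisons moved it by -0.30 (-0.35 to -0.26) without dox and by -0.39 (-0.43 to -0.36) with dox. Among the passenger strands, which are 3 mismatches apart, miR-10b* held 27.2% (24.2% to 30.3%) and 25.5% (23.2% to 27.9%) without rtTA, 21.2% (19.2% to 23.3%) in rtTA -dox and 32.5% (29.97% to 35.0%) in rtTA +dox. The stars thus placed rtTA -dox lowest among the uninduced libraries, as the guides did, but rtTA +dox highest of all, where the guides had it lowest.

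The arms of each hairpin were then compared. miR-10a* held 2.01% of both Mir10a arms (1.85% to 2.17%) in no rtTA -dox, 2.27% (2.13% to 2.41%) in no rtTA +dox, 2.40% (2.26% to 2.53%) in rtTA -dox and 1.34% (1.26% to 1.43%) in rtTA +dox. The induced library had the lowest share, outside the intervals of the others. miR-10b* held 2.22% and 2.30% of the Mir10b arms without rtTA and 2.37% and 2.48% with it, with intervals that overlapped between all 4 libraries. miR-196a* held 0.335% and 0.311% of its arms without rtTA, 0.359% in rtTA -dox and 0.616% (0.476% to 0.785%) in rtTA +dox, the highest of the 4. Its guide also counts the Hoxb copy. Over 74 hairpins with both arms listed in every library and at least 20 counts in sum, the median log2 odds ratio of star to guide for dox in rtTA cells was -0.10 (quartiles -0.70 and 0.33). The value was -0.85 (-0.98 to -0.73) for Mir10a, 0.07 (-0.14 to 0.28) for Mir10b and 0.78 (0.26 to 1.31) for miR-196a. The trend on G was not subtracted from these values, although the arms differ in G. miR-196a* holds 22.7% G against 36.4% in its guide, miR-10b* 27.3% against 21.7%, and miR-10a* 22.7% against 21.7%. Mir10a and miR-196a lay outside the quartiles of the 74 hairpins on opposite sides. By definition, quartiles leave as many hairpins outside as between them. The miR-196a interval also reached below the upper quartile (0.26 against 0.33).

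**Figure D4:**
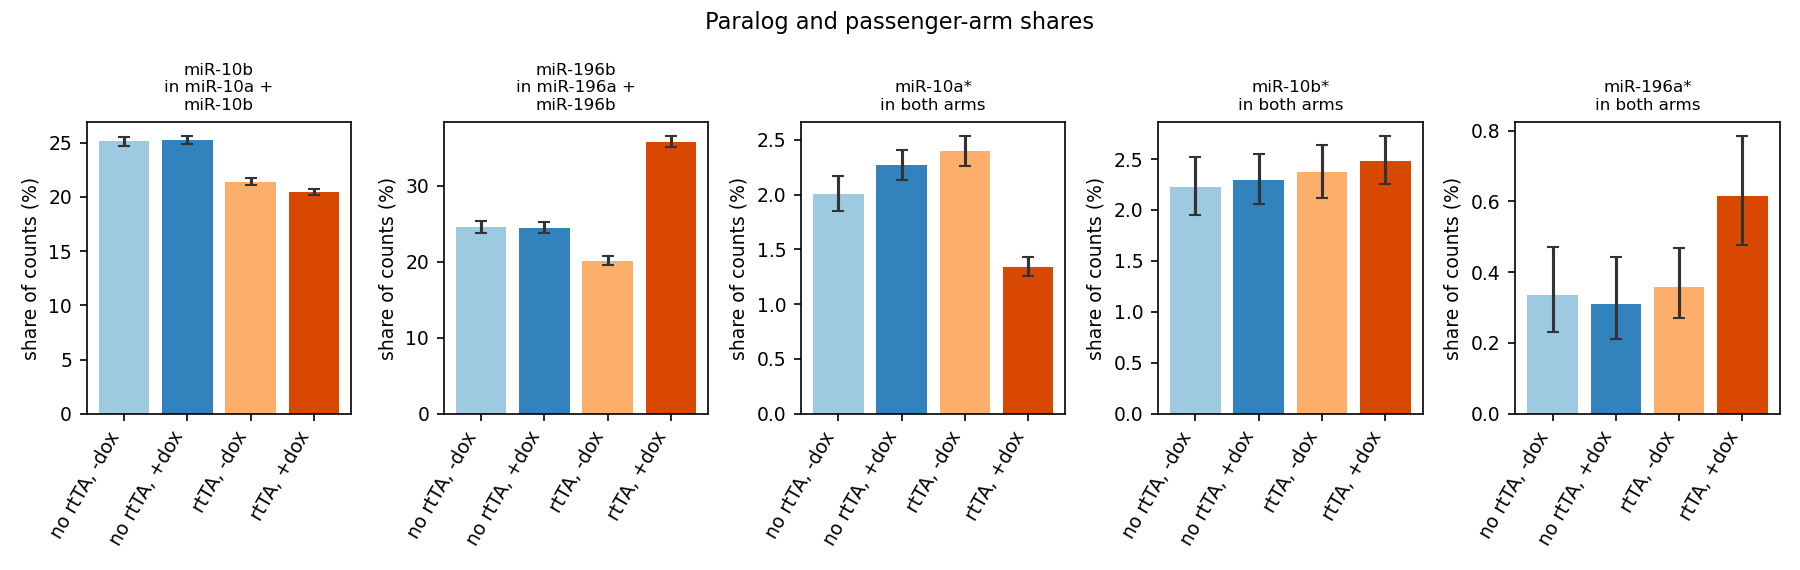
Share of counts (%) held by miR-10b among the miR-10 guides, by miR-196b among the miR-196 guides, and by the star arm of 3 microRNAs among both arms, in the 4 libraries (bars) with exact 95% counting intervals. rtTA +dox has the highest miR-196b share (35.8%) and the lowest miR-10a* share (1.34%), while the miR-10b share is lower in both rtTA libraries.

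Base composition moved with the ratios of the induced library. For dox in rtTA cells the Pearson correlation between the log2 ratio and the percentage of G in the mature sequence was 0.72 over 372 microRNAs, which share their libraries and are not independent, and the slope was 0.43 per 10 percentage points of G. Without rtTA the dox correlation was -0.20. The miR-10 guides hold 21.7% G, just under the mean of 25.3%, so subtracting the linear trend (centred on the mean) moved miR-10a from 0.66 to 0.81 and miR-10b from 0.58 to 0.73. The miR-196 guides hold 36.4% G each, and the same step moved miR-196b from 0.85 to 0.38 and miR-196a from -0.29 to -0.76. The gap within the miR-196 pair is the same before and after, since A12C leaves the number of G unchanged; their C content is 4.55% and 9.09%. In rtTA with dox the trend (correlation 0.69) took miR-196b from 0.71 to 0.14, miR-196a from -0.07 to -0.64, miR-10a from 0.44 to 0.63 and miR-10b from 0.05 to 0.23. It took miR-196a* from 0.92 to 1.05, past the 2-fold rule (background 8.06% after the step). The part of base composition in these ratios was not tested beyond this subtraction.

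**Figure D5:**
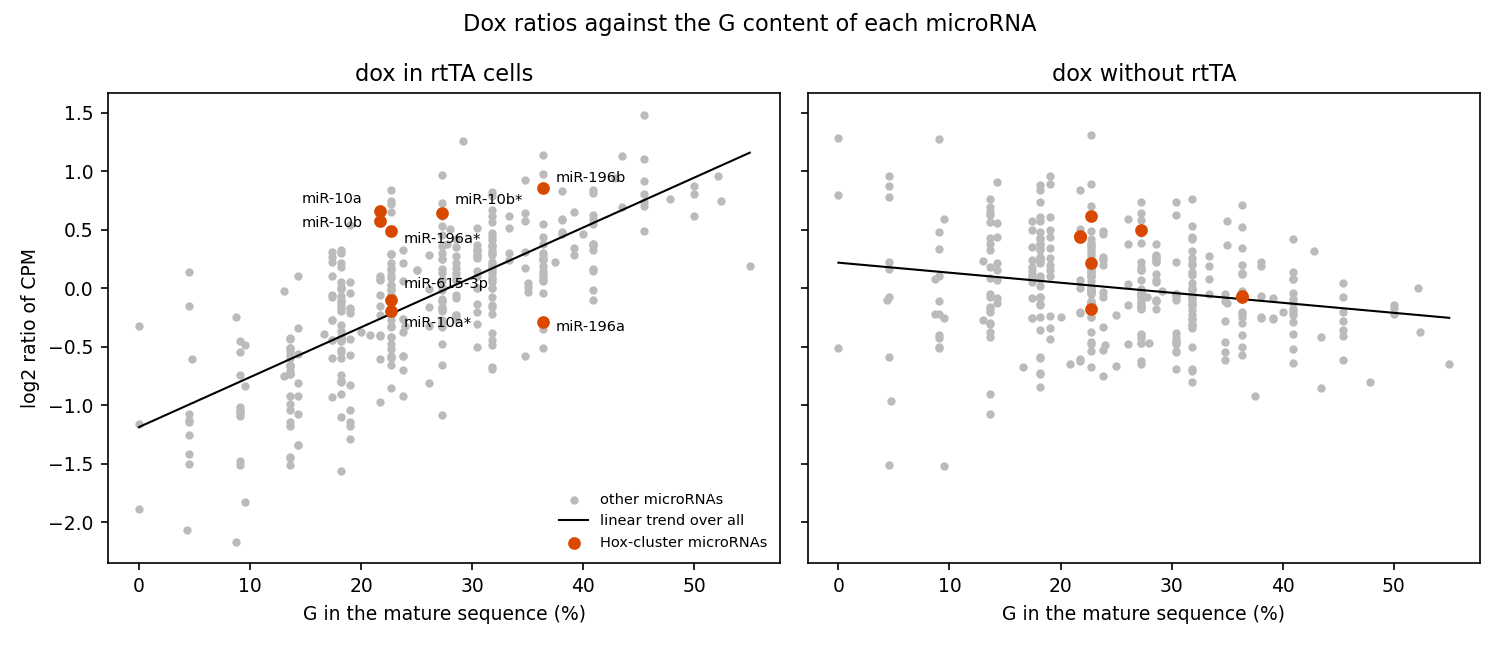
Log2 ratio of CPM for dox in rtTA cells (left) and dox without rtTA (right) against the percentage of G in the mature sequence, with the linear trend over all 372 microRNAs. On the left miR-10a (0.66) and miR-10b (0.58) lie above the trend and miR-196a (-0.29) below it, at the same G content as miR-196b (0.85).

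The related families were compared next. Of the miR-99/100 group, which resembles miR-10, 4 members were listed and past the floor (miR-99a, miR-99b, miR-99b* and miR-100). By the 2-fold rule 0 of 4 were counted in any of the 4 comparisons, and the median was 0.14 for dox in rtTA cells, 0.09 for dox without rtTA, 0.14 for rtTA without dox and 0.20 for rtTA with dox. miR-100 was at 0.11 (0.08 to 0.14) and 0.16 (0.13 to 0.20) in the dox comparisons with and without rtTA, and miR-99b at -0.20 (-0.22 to -0.18) and -0.18 (-0.21 to -0.16). Of the let-7 and miR-98 guides, 9 of 9 passed the floor and 0 of 9 were counted in any comparison. These 9 include let-7e, which lacks the miR-196 seed at bases 3 to 9. Their medians were -0.35, -0.01, 0.21 and 0.0068 in the same order of comparisons, against -0.29, -0.07, 0.15 and -0.07 for miR-196a and 0.85, -0.07, -0.22 and 0.71 for miR-196b. The let-7 guides were not alike among themselves: for dox in rtTA cells let-7b was at 0.49 (0.47 to 0.50) and let-7c at 0.38 (0.37 to 0.39), while let-7a was at -0.35 (-0.36 to -0.33).

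The microRNAs most like each member were taken as the 3 with the smallest root mean square difference in log2 CPM over the 4 libraries, after each microRNA's own mean was subtracted, among the other microRNAs with a mean of at least 100 CPM; miR-10b* and miR-196a* are below that level. For miR-10a they were miR-129-5p (0.10), miR-127 (0.10) and miR-378 (0.12), against a median of 0.37 over all candidates. For miR-10b they were miR-127* (0.09), miR-101b (0.12) and miR-379 (0.12). miR-10a and miR-10b were 0.18 apart, and 5.10% of the candidates were nearer to miR-10a than miR-10b was. For miR-196a they were miR-669d (0.01), let-7a (0.02) and let-7g (0.04), and for miR-196b they were miR-210 (0.03), miR-770-3p (0.06) and miR-382 (0.08). miR-196a and miR-196b were 0.42 apart, farther than 88.8% of the candidates were from miR-196a and than 61.2% were from miR-196b. miR-10a* was nearest to miR-30e* (0.07), miR-7a (0.08) and miR-30a* (0.10), and its own guide was 0.33 away. miR-615-3p was nearest to miR-381 (0.05), miR-199b* (0.05) and miR-300 (0.06). With 4 libraries such likeness describes these libraries only.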

How the data were processed

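Small RNA counts of 4 mouse embryonic fibroblast libraries were used. The deposited values are whole-number read counts per microRNA name, unnormalized, with 1 row for the luciferase shRNA. For the aligner, mismatch limit, microRNA database and genome build, the step is not given in the sources used here. MicroRNAs missing from a library's list were set to 0. Counts were divided by the endogenous total (CPM), leaving out the shRNA row. The floor was a mean CPM equal to 20 counts in the shallowest library (3.14 CPM). Log2 ratios have exact conditional binomial (Clopper-Pearson) 95% intervals, shares have Clopper-Pearson intervals, and differences of ratios and ratios of arms or paralogs have delta-method intervals; 0.5 was added to each count for differences of dox ratios. All cover counting error only. With 1 library per group no p-value was computed. Ratio calls were tested on data simulated with counting error only, which cannot check them against variation between libraries. Alternative scalings used edgeR 4.0.16 (TMM) and DESeq2 1.42.0 size factors; other steps used Python 3.11.15, scipy 1.17.1 and GENCODE M21. The text names every member, 2 related families, and the 3 nearest microRNAs of each member above 100 CPM. Members and lists were chosen with earlier results of these data known.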

Additional observations from a re-analysis of the deposited data

Results flagged for a closer look

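The dox ratios of 2 members pointed opposite ways with and without rtTA, each with a counting interval that excluded 0. miR-10a* was at -0.19 with rtTA and 0.62 without, a difference of -0.81. With the trend on G subtracted its ratio with rtTA was -0.08 (-0.21 to 0.04), an interval that included 0. miR-615-3p was at -0.10 and 0.21, a difference of -0.32. Subtracting the G trend put its ratio with rtTA at 0.0081 (-0.09 to 0.10). Without that step, the interval of this ratio included 0 under TMM (-0.15 to 0.04) and DESeq2 scaling (-0.16 to 0.03). The same held for scaling without the 10 most abundant microRNAs (-0.18 to 0.01). With the shRNA included in the total, the interval excluded 0 (-0.23 to -0.04). With 1 library per group these differences were not tested against replicates.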

How the results depend on the processing

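No member passed the 2-fold rule in any of the 4 comparisons under TMM, DESeq2 and shRNA-inclusive scaling, scaling without the 10 most abundant microRNAs, no floor, a floor of 100 counts, or with near-identical guides summed. With the G trend subtracted, 1 member passed in rtTA with dox (miR-196a*). At 1.5-fold the counts were 3 (dox in rtTA cells), 1 (dox without rtTA) and 3 (rtTA with dox), and 2 for the difference of the dox ratios, where 2-fold gave 0. With the G trend also subtracted, the 1.5-fold rule counted 4, 1, 3 and 2, but not the same members. With near-identical guides summed and the passenger strands left out, which leaves 3 values, the median for dox in rtTA cells was 0.024 in place of 0.53; with the passenger strands kept, an alternative added after seeing the data, it was 0.26. The median for dox without rtTA, 0.33, was 0.21 with guides summed and passenger strands left out, 0.33 with them kept, 0.21 with no floor and 0.44 with a floor of 100 counts. The strain medians ranged from 0.017 (no floor, or a floor of 100 counts) to 0.15 (DESeq2) for rtTA without dox, and from 0.05 (the same floors) to 0.19 (TMM and DESeq2) for rtTA with dox. The passenger strands gave a miR-10b share of 27.2% in no rtTA -dox and 32.5% in rtTA +dox, against 25.2% and 20.4% from the guides; the cause was not tested. For single members, 228 of 275 alternative values stayed inside the counting interval and 47 fell outside it. A floor cannot change the ratio of a single member. The values with no floor or a floor of 100 counts are therefore among the 228 by construction. Of the 275 values, 5 changed sign, all within 0.03 of 0: miR-615-3p (dox in rtTA cells), miR-196a and miR-196b (dox without rtTA) with the G trend subtracted, and miR-196a (rtTA with dox) under TMM and DESeq2. Neither leaving out a replicate nor another estimate of the miR-196b share was possible, because each group holds 1 library and miR-196b has 1 arm among the members. No paired analysis was possible because the labels give no replicate numbers. Depth limits miR-615-5p (at most 4 counts) and miR-196a* (30 to 65 counts).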
